A study of Rattus norvegicus with 10 samples.

Results

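Purine nucleotides are built, recycled and degraded by separate sets of enzymes, and 10 genes of these routes were followed in rat liver. They were Xdh, Uox, Ada and Gda of breakdown, Adk, Hprt1 and Aprt of salvage, and Ppat, Paics and Impdh2 of synthesis. The members were all probe sets that the platform gene table assigns to only 1 of these genes, which gave 10 probe sets for 8 genes, out of 31042 probe sets that are no control (14217 genes with a probe set of their own). Breakdown had 5 of them, salvage 4 and synthesis 1. The probe set that lists Paics also lists another gene, and the table used here pairs no probe set with Impdh2, so neither gene was analysed here.

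The livers came from male rats aged 13 weeks. The seasoned group (N-group, 5 livers, animals 1, 4, 7, 10 and 13) received for 30 days a diet with 30 wt% instant noodle in which fat gave 26% of the energy. The control group (C-group, 5 livers, animals 2, 5, 8, 11 and 14) received that diet with the seasonings left out. Both were fed in pairs at about 60 g of diet per kg body weight and day, under 12 h of light and 12 h of dark, and the question is whether the seasonings alter the liver transcriptome. Each liver was measured on 1 Affymetrix rat array, whose deposited values are log2 signals. The labels' extraction text speaks of brain, although the samples are labelled liver. Hepatocyte markers were measured for 5 of 6 genes, with a median level of 13.75, and brain markers for 5 of 6 genes, with a median level of 6.19. The brightest brain-list probe set, of Mbp, averaged 7.26. Levels of different probe sets are not comparable and detection calls were not used here, so these values describe the arrays and do not settle the tissue.

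In purine breakdown, adenosine is deaminated to inosine and guanine to xanthine, and xanthine dehydrogenase then forms urate. Rats, unlike humans, keep a working urate oxidase, so that their liver carries urate on towards allantoin. Salvage enzymes return free bases and adenosine to nucleotides in a single step, whereas synthesis builds the ring on ribose phosphate through a long series of reactions.

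None of the 10 probe sets passed the test between the diets, and each difference lay within what the spread between livers allows at 5 per group. In limma's fit over all probe sets, 0 of 10 had a Benjamini-Hochberg adjusted p under 0.05 (every adjusted p was 0.9997), and 0 had an unadjusted p under 0.05. Over the whole table these shares were 0% and 4.48%. Exact two-sided permutation tests on 5 livers per group gave the members p-values from 0.143 to 0.865, where the smallest possible is 0.00794. In each of the 10 probe sets the seasoned and control livers overlapped, as they did in all but 0.77% of the probe sets of the table and all but 2.99% of those called varying below. The titles number the animals separately, and the p-values therefore speak of differences between rats. These signals also cannot tell fewer cells of a type from less RNA per cell.

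Most deposited values hardly moved from liver to liver, and a probe set is called varying here when its SD over the 10 livers is above 0.01 log2 units. Of the probe sets with 1 gene, 15.6% were varying, and even the brighter probe set of Alb, albumin, read 14.34 in every liver. The method behind the deposited values is not given, so a near-constant signal may come from that method and is not evidence that a transcript was stable across livers or diets. Among the members 6 of 10 were varying, namely those of Xdh, Uox, Gda, Hprt1 and Aprt. Of these 6, 5 had a positive seasoned minus control difference with a median over the 6 of 0.06, against 53.3% positive and a median of 0.01 over all 4050 varying probe sets. Unadjusted p-values under 0.05 made up 12.5% of all varying probe sets, and 0 of these 6.

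**Figure D1:**
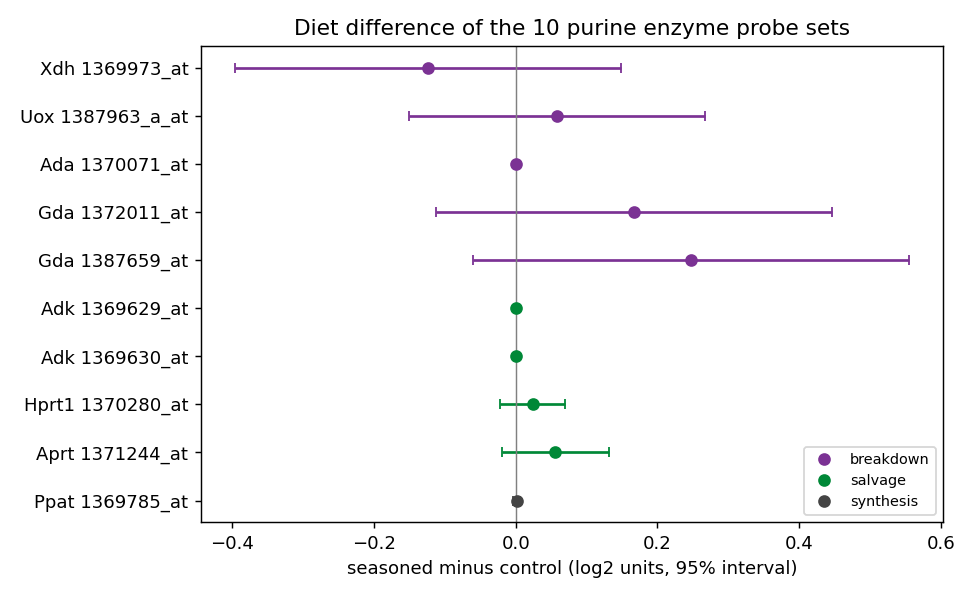
Seasoned minus control difference in log2 units (x axis) with its 95% interval from limma for the 10 member probe sets, coloured by class, 5 livers per diet. Every interval includes 0, the points run from -0.12 for Xdh to 0.25 for Gda 1387659_at, and the intervals of Ada, Adk and Ppat are too narrow to see.

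Gda encodes guanine deaminase, which turns guanine into xanthine, and its probe sets had the largest differences of the members. Probe set 1387659_at read 8.96, 8.89, 8.91, 8.38 and 8.39 in seasoned animals 1, 4, 7, 10 and 13, against 8.45, 8.52, 8.40, 8.58 and 8.34 in control animals 2, 5, 8, 11 and 14. Seasoned animals 1, 4 and 7 lay above all controls, while seasoned animals 10 and 13 lay within the range of the controls. Its log2 difference was 0.25 ± 0.13 (SE, n = 5 livers per group, 1.19-fold), with a 95% interval from -0.06 to 0.55 and exact permutation p = 0.143.

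The other Gda probe set, 1372011_at, read 9.23, 9.15, 9.07, 8.78 and 8.59 in the seasoned animals in the same order, against 8.77, 8.84, 8.88, 8.80 and 8.70 in the controls. The same 3 seasoned animals again lay above every control, and seasoned animal 13 lay below every control. The log2 difference was 0.17 ± 0.12 (SE, n = 5 per group, 95% interval -0.11 to 0.45, exact permutation p = 0.198). Seasoned livers had an SD of 0.27 for 1372011_at and 0.29 for 1387659_at, against 0.07 and 0.09 in control livers.

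Xdh encodes xanthine dehydrogenase, the enzyme that makes urate. Its log2 signals were 10.22, 10.11, 10.12, 9.56 and 10.11 in seasoned livers, against 10.15, 10.24, 10.17, 10.11 and 10.08 in control livers. Only seasoned animal 10 lay apart, below all other livers, and the other seasoned livers lay inside the range of the controls. The difference was -0.12 ± 0.12 (SE, n = 5 per group, 95% interval -0.40 to 0.15, exact permutation p = 0.421). Without seasoned animal 10 it was -0.0063.

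Uox encodes urate oxidase, which acts on the urate that Xdh forms. The signals were 11.25, 11.05, 11.36, 11.26 and 11.26 in seasoned livers, against 11.49, 11.12, 11.12, 11.04 and 11.11 in control livers. Control animal 2 was the highest liver of all, while the other 4 controls lay below every seasoned liver but animal 4. The difference was 0.06 ± 0.09 (SE, n = 5 per group, 95% interval -0.15 to 0.27, exact permutation p = 0.516). Without control animal 2 it was 0.14 ± 0.06, with an unadjusted limma p of 0.0469 and an adjusted p of 0.940.

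Ada encodes adenosine deaminase, which makes inosine from adenosine and is best known from lymphocytes. Its signal was 6.38 in all 10 livers, with a spread of 0.00055 between the lowest and the highest liver. It was near-constant, so its values do not bear on the diets. Lymphocyte markers were measured for 4 of 6 genes, and 0 of their 5 probe sets varied, as most in the table do not.

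**Figure D2:**
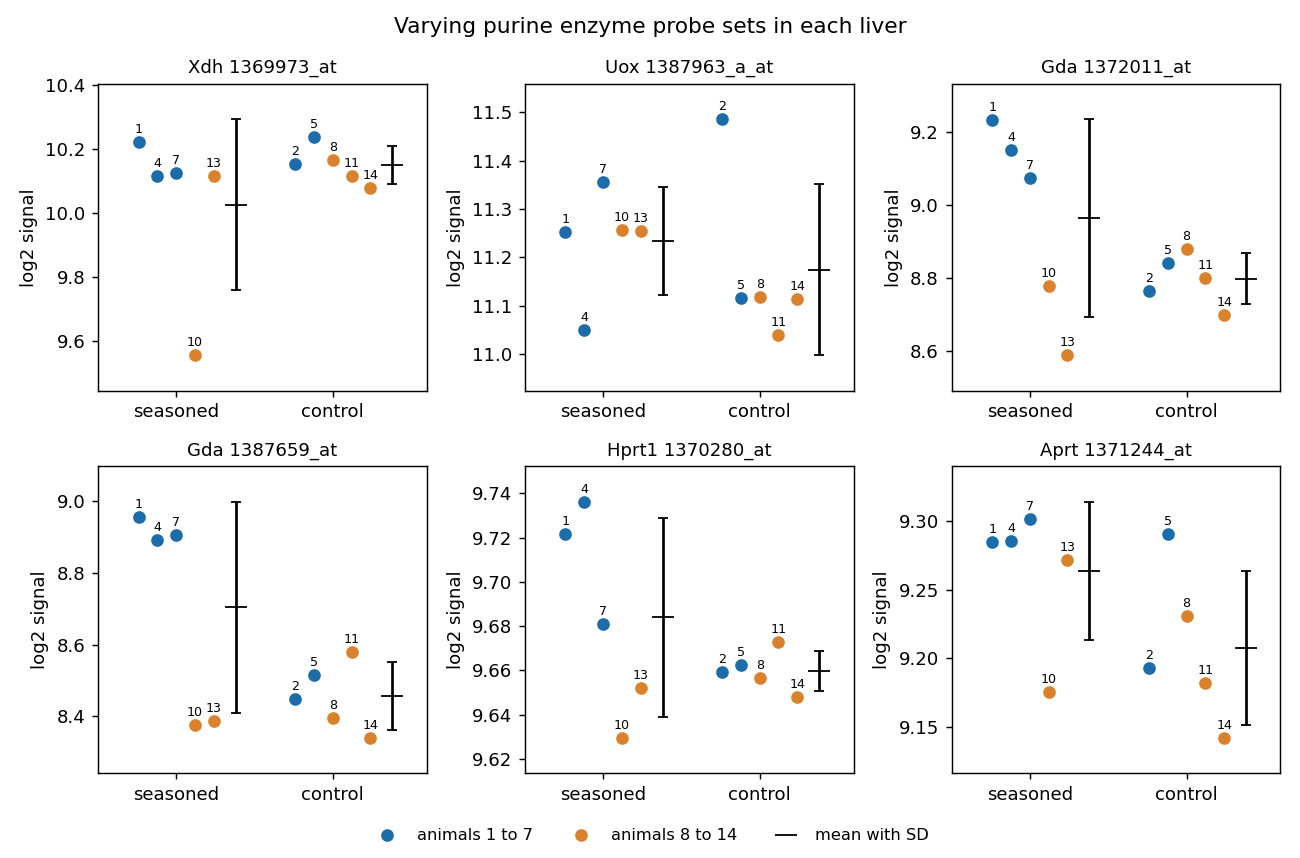
Log2 signal (y axis, which does not start at 0 and differs between panels) of the 6 varying member probe sets in each liver, seasoned left and control right, with animal numbers above the points and mean with SD beside each group. Seasoned animals 1, 4 and 7 are above every control in both Gda panels and in Hprt1, and seasoned animal 10 is far below the other seasoned livers in Xdh and Aprt.

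Among the salvage enzymes, Hprt1 returns hypoxanthine and guanine to nucleotides. It read 9.72, 9.74, 9.68, 9.63 and 9.65 in seasoned livers, against 9.66, 9.66, 9.66, 9.67 and 9.65 in control livers. As in Gda, seasoned animals 1, 4 and 7 were above all controls, with seasoned animal 10 lowest. The difference was 0.02 ± 0.02 (SE, n = 5 per group, exact permutation p = 0.309), with a 95% interval from -0.02 to 0.07.

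Aprt, the enzyme that returns adenine to AMP, read 9.29, 9.29, 9.30, 9.18 and 9.27 in seasoned livers, against 9.19, 9.29, 9.23, 9.18 and 9.14 in control livers. Seasoned animal 10 was the low liver of its diet and control animal 5 the high liver of the controls. The difference was 0.06 ± 0.03 (SE, n = 5 per group, 95% interval -0.02 to 0.13, exact permutation p = 0.151). It was 0.08 without seasoned animal 10 (limma, adjusted p = 0.702), and also 0.08 without control animal 5 (limma, adjusted p = 0.815), both with an unadjusted p under 0.05.

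Adk, which phosphorylates adenosine to AMP and is a major route of adenosine removal in liver, had near-constant signals, which carry the same limit. They were 10.37 for 1369629_at and 11.75 for 1369630_at in all 10 livers, with ranges of 0.00044 and 0.00052. For synthesis, the only measured gene was Ppat, the amidophosphoribosyltransferase of the first committed step. Its signal lay between 7.26 and 7.27 in both diets. The differences of the 4 near-constant members were at most 0.0012 log2 units in size, and at most 0.0155 after quantile normalization of the deposited values.

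The livers also part by animal number, a division found in these data and not named in the labels. Because it was found in the same values, the p-values given below for the sets and their interaction describe it and cannot test it. If the number in the labels' array code is a position, it runs with this division: positions 2, 3 and 4 hold the lower-numbered seasoned livers and 5 and 6 the higher, while 1 and 2 hold the lower-numbered control livers and 3, 4 and 5 the higher. Position and animal number cannot be told apart within a diet. Animals 1 to 7 are 3 seasoned and 2 control livers, and animals 8 to 14 are 2 seasoned and 3 control livers. All 6 varying members had lower signals in animals 8 to 14 with diet in the model, by differences of -0.29 to -0.04, and 2 of them, both of Gda, had an unadjusted limma p under 0.05. A negative difference was found in 71.8% of all varying probe sets, and 34.6% were lower at an unadjusted p under 0.05. The median of the varying probe sets was itself 8.14 in animals 8 to 14 and 8.25 in animals 1 to 7. None of the 6 passed after adjustment over all probe sets, of which 3.27% did, and the smallest adjusted p was 0.129 for Gda 1387659_at. After centring each array on its median of varying probe sets, Hprt1 and Aprt were higher in animals 8 to 14 in both diets. Hprt1 then averaged 9.72 (seasoned) and 9.70 (control) there, against 9.66 and 9.61 in animals 1 to 7. Xdh and both Gda probe sets were then lower in animals 8 to 14 in seasoned livers only, and Uox in control livers only.

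The diet difference of Gda had opposite signs in the 2 sets. Within animals 1 to 7, probe set 1387659_at averaged 8.92 in seasoned livers and 8.48 in control livers, a difference of 0.44 (3 and 2 livers). Within animals 8 to 14 it averaged 8.38 in seasoned livers and 8.44 in control livers, a difference of -0.06 (2 and 3 livers). For 1372011_at the differences were 0.35 in the lower-numbered set and -0.11 in the higher-numbered one. The test of the change between the sets, an interaction term in limma, gave 0.49 ± 0.10 for 1387659_at (unadjusted p = 0.0017, adjusted p = 0.551) and 0.46 ± 0.11 for 1372011_at (unadjusted p = 0.0058, adjusted p = 0.600). Neither passed. Over the table, 11.4% of varying probe sets had an unadjusted interaction p under 0.05, and 0 of 31042 passed after adjustment.

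Hprt1 had the same pattern at a smaller size, with 0.05 in the lower-numbered set and -0.02 in the higher-numbered one (interaction 0.07 ± 0.02, unadjusted p = 0.0238, adjusted p = 0.681). The sign turn of Hprt1 was lost once each array was centred on the median of its varying probe sets, with 0.05 and 0.02. Uox ran the other way, with -0.08 in the lower-numbered set and 0.17 in the higher-numbered one (interaction -0.25 ± 0.18, limma, adjusted p = 0.868). Xdh differed by -0.04 and -0.28 within these sets and Aprt by 0.05 and 0.04, each with 1 sign in both. With the set as a block, the difference was 0.19 ± 0.10 for Gda 1387659_at (limma, adjusted p = 0.967) and 0.12 ± 0.10 for 1372011_at (limma, adjusted p = 0.9998). With this block 0 of the 6 had an unadjusted p under 0.05, against 15.1% of all varying probe sets.

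**Figure D3:**
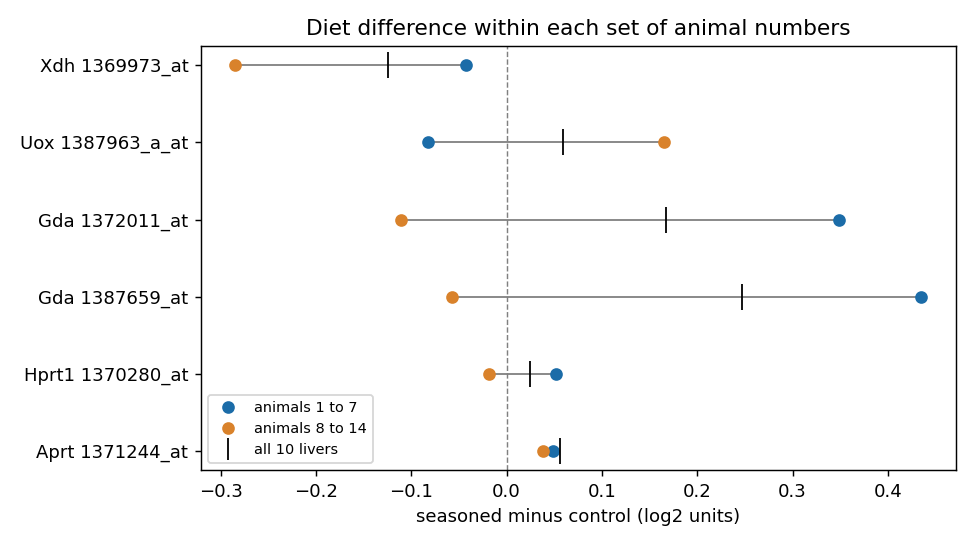
Seasoned minus control difference in log2 units (x axis) for the 6 varying member probe sets, within animals 1 to 7 (3 seasoned, 2 control), within animals 8 to 14 (2 seasoned, 3 control) and over all 10 livers. In these uncentred values the sets lie on opposite sides of 0 for Uox, both probe sets of Gda and Hprt1, of which Hprt1 does not after centring (0.05 and 0.02), and 0.49 apart for Gda 1387659_at. The share of all varying probe sets with opposite signs is not given here.

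The array median and the cell type markers were set beside Gda. The median of the varying probe sets was 8.24 to 8.27 in seasoned animals 1, 4 and 7, and 8.10 and 8.14 in seasoned animals 10 and 13. In control animals 2, 5, 8, 11 and 14 the median was 8.21, 8.30, 8.19, 8.07 and 8.22. Among these controls the 1387659_at signal was highest in animal 11 (8.58) and next in animal 5 (8.52), and the 1372011_at signal was highest in animal 8 (8.88). The part of the array median in the Gda values was not tested. After each array was centred on that median, the Gda 1387659_at difference was 0.43 in the lower-numbered set and -0.01 in the higher-numbered one, and that of 1372011_at was 0.35 and -0.07. Over all 10 livers that of 1387659_at was then 0.24 ± 0.08 (limma, adjusted p = 0.388), and that of 1372011_at 0.16 ± 0.08 (limma, adjusted p = 0.974), both with an unadjusted p under 0.05. Centring also shifts the near-constant probe sets, and limma draws each variance partly from all probe sets. The SE of Gda 1387659_at was 0.13 before centring and 0.08 after, while that of Hprt1 was 0.02 and 0.05. These unadjusted p-values rest in part on that change and are no support for a diet difference. Kupffer cell and macrophage markers were measured for 5 of 6 genes. All 5 were higher in seasoned livers within animals 1 to 7 (0.03 to 0.28) and lower within animals 8 to 14 (-0.18 to -0.02). Their summed log2 level ran from 39.82 to 42.71 in seasoned livers and from 40.40 to 41.64 in control livers, and the levels of single markers from 7.04 to 10.07. These marker values are uncentred, and no centred ones are given here. The smallest of these differences in size within animals 8 to 14, -0.02 for Clec4f, could change sign on centring, as that of Hprt1 did. Stellate probe sets were higher within animals 1 to 7 in 5 of 7 and lower within animals 8 to 14 in 7 of 7. For endothelial ones these counts were 1 and 6 of 6, for pericentral 3 and 6 of 8, and for periportal 1 and 2 of 6. They were 3 and 0 of 6 for hepatocyte, 3 and 2 of 5 for lymphocyte, 1 and 0 of 3 for cholangiocyte, and 4 and 1 of 8 for brain markers. Varying probe sets were 2 of the 7 stellate, 2 of the 6 endothelial, 6 of the 8 pericentral and all 6 periportal ones. They were 1 of the 6 hepatocyte, 0 of the 5 lymphocyte, 1 of the 3 cholangiocyte and 1 of the 8 brain ones. The counts above include the near-constant rest, whose signs do not bear on the diets. The part of any cell type in the Gda values was not tested.

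The genes with the profile most like that of Gda 1387659_at over the 10 livers were sought among 3241 varying probe sets with 1 gene. They were Tpst2, a tyrosylprotein sulfotransferase (Pearson r = 0.970, Spearman rho = 0.939), Nfil3, a transcriptional repressor tied to the circadian clock (r = 0.958, rho = 0.806), and Chka, a choline kinase (r = 0.957, rho = 0.782). As the highest of many these values are a description, and they rest partly on seasoned animals 1, 4 and 7. Over the other 7 livers r was 0.646 for Tpst2, 0.621 for Nfil3 and 0.715 for Chka. Seasoned minus control differences were 0.24 for Tpst2, 0.59 for Nfil3 and 0.63 for Chka, given with no test because the genes were picked for their likeness.

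For Aprt, the salvage member with the smallest p, the most similar profiles were those of Naprt, a nicotinate phosphoribosyltransferase (r = 0.959, rho = 0.939), Tars2, a mitochondrial threonyl-tRNA synthetase (r = 0.914, rho = 0.939), and Lims2, an adaptor of cell adhesions (r = 0.909, rho = 0.939). All these profiles come from the same 10 arrays, with the shift of the varying probe sets described above. No synthesis member varied, so none was set against other genes.

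The promoter of Gda, the member with the largest difference, was read as a description, and no link between its motifs and the signals was tested. It is the stretch of 250 bases before the start of the gene in RefSeq, build GRCr8, chr1:228408902-228409151, minus strand, 5′ to 3′, with matches to the searched motifs in capitals.
Gda: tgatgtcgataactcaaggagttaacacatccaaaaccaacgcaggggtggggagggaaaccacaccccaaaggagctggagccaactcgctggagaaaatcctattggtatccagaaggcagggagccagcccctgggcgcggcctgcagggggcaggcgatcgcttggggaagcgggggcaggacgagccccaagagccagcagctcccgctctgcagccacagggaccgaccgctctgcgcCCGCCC
The motifs searched on both strands were the E-box CACGTG, the GC box GGGCGG and the TATA element TATAAA, and the 1 match here is a GC box on the opposite strand. Promoters of the 8 measured members were all in the table. The GC box was in 6 of these 8, against 30.5% of 33469 promoters, the E-box in 0 of 8, against 5.6%, and TATAAA in 1 of 8, against 12.9%. A match is a string of letters and not a site, and its absence says only that these letters are not in this window.

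The rest of the purine routes was read from 5 lists holding 60 genes, of which 54 were measured by 77 probe sets. Of these probe sets, 23 varied, 17 of them with a positive difference and a median of 0.08. At an unadjusted limma p under 0.05 there were 2, both higher in seasoned livers, which is 2.6% of the 77 and 8.7% of the 23, against 4.48% of all and 12.5% of all varying probe sets. None passed after adjustment.

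Other breakdown enzymes were measured for 14 of 15 genes and gave 0 of 17 probe sets at an unadjusted p under 0.05. Urah and Urad, which carry the product of urate oxidase on to allantoin, are named for their place in the route, outside the rule for named genes. They averaged 10.82 and 9.95 in seasoned livers, against 10.72 and 9.998 in control livers, differences of 0.11 ± 0.08 and -0.05 ± 0.16 (SE, n = 5 per group). Pnp, the phosphorylase that frees purine bases from nucleosides and likewise named for its place, was near-constant at 11.09 for its brighter probe set, and so gives no comparison of the diets.

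Other salvage and interconversion enzymes gave 0 of 16 probe sets at an unadjusted p under 0.05, with 8 of 11 genes measured and 3 probe sets varying. Other synthesis enzymes gave 0 of 19, with 11 of 12 genes measured and 3 probe sets varying. These were for Prpsap1, Adss1 and Gmps, named because they are the whole of the varying group, with differences of 0.06, -0.06 and 0.11.

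In the list of folate one-carbon supply, which brings formyl groups to the growing purine ring, 9 of 10 genes were measured and 1 of 11 probe sets had an unadjusted p under 0.05. It was that of Mthfd1, a cytosolic folate enzyme that makes the formyl donor. Mthfd1 read 10.07, 10.10, 10.06, 9.85 and 10.10 in seasoned livers, against 9.90, 9.41, 9.90, 9.97 and 9.54 in control livers. All seasoned livers but animal 10 were above all controls. The difference was 0.29 ± 0.12 (SE, n = 5 per group, unadjusted limma p = 0.0381, adjusted p = 0.9997, exact permutation p = 0.0317). It was 0.42 in the lower-numbered animals and 0.17 in the higher-numbered ones. With the set as a block the unadjusted p was above 0.05 (limma, adjusted p = 0.934).

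In the list of urate and nucleoside transport, all 12 genes were measured and 1 of 14 probe sets had an unadjusted p under 0.05. It was that of Slc28a2, a sodium-coupled transporter that takes up purine nucleosides. Slc28a2 read 8.59, 9.18, 8.80, 8.82 and 8.61 in seasoned livers, against 8.40, 8.48, 8.09, 8.70 and 8.46 in control livers. Seasoned animals 4, 7 and 10 were above all controls, and control animal 11 was above seasoned animals 1 and 13. The difference was 0.37 ± 0.14 (SE, n = 5 per group, unadjusted limma p = 0.0281, adjusted p = 0.9997, exact permutation p = 0.0238), with 0.42 and 0.30 within the animal-number sets.

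**Figure D4:**
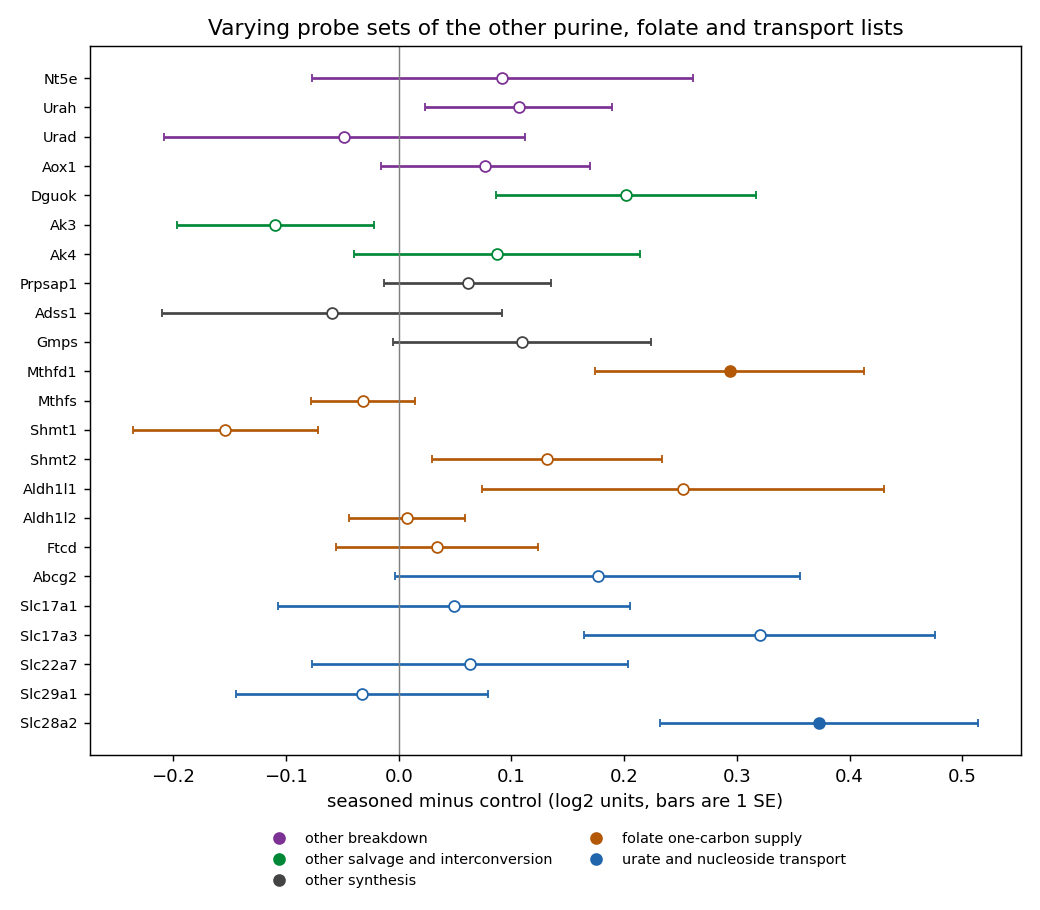
Seasoned minus control difference in log2 units (x axis) with 1 SE for the 23 varying probe sets of the other lists, coloured by list, 5 livers per diet. Filled points mark an unadjusted limma p under 0.05, which Mthfd1 (0.29) and Slc28a2 (0.37) had, and open points the rest.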

How the data were processed

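Per the labels' protocols, 100 ng of total RNA of each liver went into biotin-labelled cRNA. The authors deposited 1 log2 signal per probe set and array. The summary and normalization method and the genome build are not given in the sources used here, and the log base was read from the range of values (4.79 to 14.34). Without intensities or detection calls no depth can be stated, and precision is set by there being 5 arrays per diet. The table has 31099 probe sets, 57 of which are controls and stayed out. The platform's gene table gave 20826 probe sets 1 gene, 436 several and 9780 none, and gene identifiers were looked up in the GRCr8 gene table for current symbols (20758 matched). Dim probe sets were kept, and 87% of probe sets had an SD over the 10 livers at or under 0.01.

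Seasoned and control livers were compared with limma 3.58.1 (lmFit, eBayes, two-sided, no covariate) in R 4.3.3 over 31042 probe sets with Benjamini-Hochberg adjustment, a choice of all probe sets that keeps every member. The code of the fit was checked on simulated independent values with known differences larger than those of the members. These values lack the shift between arrays described above, so the check does not bear on the member differences. Single values were also tested by exact permutation over 252 assignments. Alternatives were 1 probe set per gene, varying probe sets only, no dim probe sets, quantile normalization, centring, another variance model, covariates, an assumed pairing and leaving out each liver. The interaction with the animal-number set, the difference between the sets and the centred values within them were added after seeing the data. So were the tests of Mthfd1 and Slc28a2 under the alternatives. The division into sets was itself found in these data, also where it serves as a block or for fits within a set. The members and lists were chosen with earlier results of these data known. The rule for named genes took all members, list genes with a varying probe set and an unadjusted p under 0.05 (at most 4 a list), and the 3 most similar profiles per class. The labels' array codes begin with A for all seasoned livers and with B for all control livers. If the letter is an array row, row and diet cannot be told apart.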

Additional observations from a re-analysis of the deposited data

Results flagged for a closer look

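Among 16 groups of 5 livers (6 varying member probe sets, Mthfd1 and Slc28a2, in both diets), 4 had an extreme liver separated from the next by more than 0.71 of the whole spread. By chance about 1 group in 20 would, which is 0.8 of 16 independent groups. These groups share the same 10 arrays, Gda enters with both its probe sets, and Mthfd1 and Slc28a2 were picked by their p. The 4 against 0.8 is therefore no measure of an excess. Seasoned animal 10 was low for Xdh (gap ratio 0.8368), for Aprt (0.7609) and for Mthfd1 (0.8551). Control animal 2 was high for Uox (0.8221). The array median of seasoned animal 10 was the lowest of the seasoned livers, at 8.10. What sets these livers apart was not tested.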

How the results depend on the processing

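The number of member probe sets with an adjusted p under 0.05 was 0 under all 19 alternatives that used 9 or 10 livers. At an unadjusted p under 0.05, the count of 0 went to 2 after centring on the varying probe sets (both of Gda) and within animals 1 to 7 (both of Gda), and to 1 within animals 8 to 14 (Uox). It ran from 0 to 2 with 1 liver left out: 2 without seasoned animal 10 (Gda, Aprt), 2 without seasoned animal 13 (both of Gda), and 1 each without control animals 2 (Uox) and 5 (Aprt). The count of 2 in the other lists went to 6 after centring and to 1 within animals 8 to 14, and ran from 0 (without seasoned animal 7) to 5 (without control animal 11) with 1 liver left out. Both counts after centring rest in part on the changed variances described above. Signs turned within the sets for Uox (-0.0822 in animals 1 to 7), Gda 1372011_at (-0.11 in animals 8 to 14), Gda 1387659_at (-0.057 in animals 8 to 14) and Hprt1 (-0.0185 in animals 8 to 14), and under no alternative with 9 or 10 livers. After centring, the difference within animals 8 to 14 was 0.024 for Hprt1, -0.0144 for Gda 1387659_at and -0.07 for Gda 1372011_at. How common such turns are over all varying probe sets is not given here, and the cause of these changes was not tested. Xdh ran from -0.17 to -0.0063 with 1 liver left out. The diets share no animal number, so the labels give no pairs. An assumed pairing of neighbouring numbers left the member counts at 0 and gave a count of 3 in the other lists. Mthfd1 then had an unadjusted p above 0.05 (limma, adjusted p = 0.933).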
